A study of Homo sapiens with 6 samples.

Results

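The genes described here are 44 p53 target and cell death genes in RNA sequencing libraries of Daoy cells, chosen by name out of 60554 gene identifiers in each count file and matched to GENCODE release 29 symbols. All 44 passed the low-count filter, among 18683 genes tested. They comprise 24 p53 regulators and targets and 20 genes of the BCL2 family, the initiator caspases with APAF1, and the inhibitor of apoptosis family. The p53 gene itself and CDKN1A were not analysed here. Daoy is an established line from a human medulloblastoma, a cerebellar tumour, and is commonly described as carrying a mutated p53 gene, which was not examined in these libraries. One group of cells received ZBTB7B carrying R363L, a substitution in its zinc-finger domain (ZFmut, 3 libraries), and was set against cells that received the wild-type form (WT, 3 libraries). Cells of both groups grew for 4 days in DMEM with 10% serum, and in both the transgene came from lentivirus, added at a multiplicity of infection of 15 and left for 72 hr. Every library therefore carried a transgene, and none came from cells without one, so the levels of untransduced cells are not known.

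p53 is a transcription factor that is held at a low level by MDM2 and accumulates after DNA damage and other stress. Its targets slow the cell cycle, repair DNA, alter metabolism or prepare the cell for death. In the mitochondrial pathway of apoptosis, survival proteins such as BCL2 and MCL1 hold back the pore-forming proteins BAX and BAK1, and BH3-only proteins release that hold. Cytochrome c that leaves through the pores joins APAF1 to activate caspase 9, and inhibitor of apoptosis proteins restrain the caspases. Many of these genes are also transcribed without p53, under FOXO, ATF4 or NF-kB factors among others. ZBTB7B, also named ThPOK, is a zinc-finger transcription factor known mainly from the CD4 lineage of T cells.

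Of the 44 genes, 14 were higher and 12 lower in ZFmut than in WT libraries in the quasi-likelihood test of edgeR, with p-values adjusted by Benjamini and Hochberg over all tested genes and a threshold of 0.05. That is 59.1% of them, beside 35.6% of all tested genes, of which 17.2% were higher and 18.4% lower. Among genes with at least 5 CPM (counts scaled to the TMM-normalised library size) in at least 3 libraries, where 42 of the 44 were tested, the share was 59.5% beside 44.5% of all 11870 genes. The changes ran in both directions. The members' median log2 difference, ZFmut minus WT, was -0.02 beside -0.0041 over all tested genes, and the median size without sign was 0.22 beside 0.19. The groups did not overlap for 27 of the 44 members (61.4%), beside 47.2% of all tested genes. Changes of at least 1.5-fold were found for 8 called members (18.2%, beside 10.8% of all tested genes), with GDF15, BOK and TP53I3 higher and BIK, CCNG2, TP53INP1, BMF and BIRC3 lower in ZFmut. The count of higher genes depended on single libraries, over all tested genes as well as over the 44 members. Over all genes it was 3207 with all libraries and ran from 2266 to 3934 when 1 was left out. For members it was 7 without ZFmut replicate 3 (beside 11.9% of all tested genes), the library with the most reads. It was 9 without WT replicate 1, WT replicate 2 or WT replicate 3 (beside 13.9, 14.6 and 13%). It was 10 without ZFmut replicate 2 (beside 14.2%) and 16 without ZFmut replicate 1 (beside 20.4%). The count of lower members stayed between 12 and 14, beside 19.6%, 15% and 13.2% of all tested genes without ZFmut replicates 1, 2 and 3 and 14.6%, 15.6% and 14% without WT replicates 1, 2 and 3. In a test against a minimum fold of 1.2, 4 members were higher and 6 lower, beside 5.9% and 6.9% of all tested genes.

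**Figure D1:**
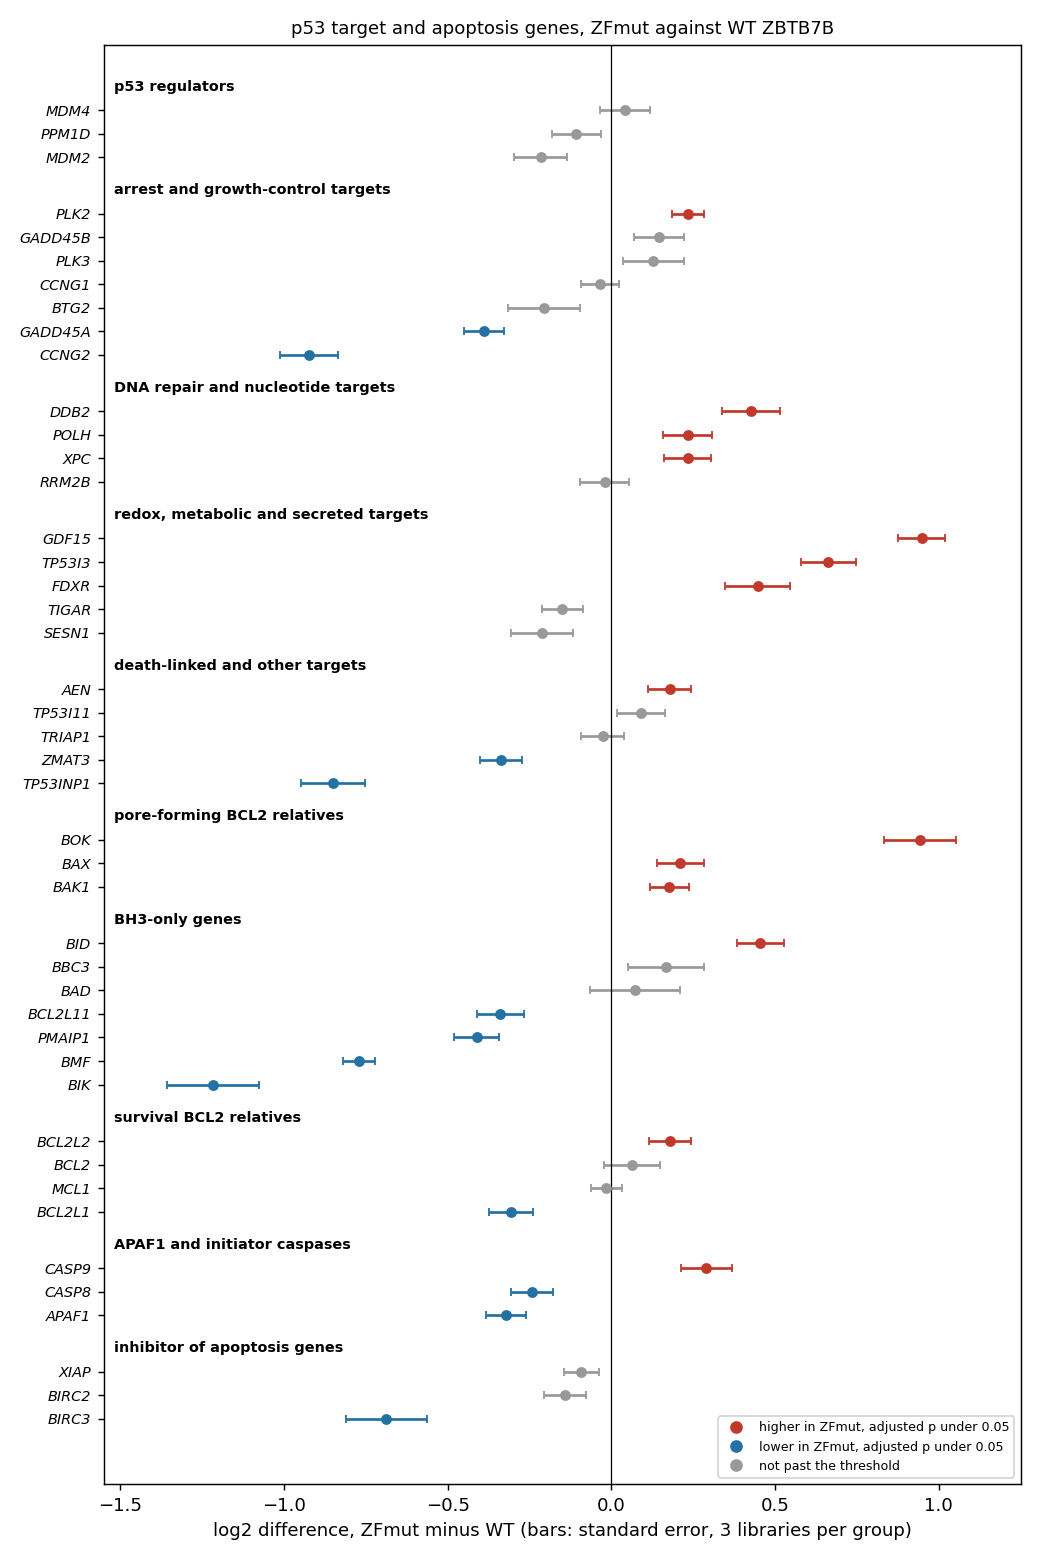
Log2 difference (ZFmut minus WT, horizontal axis) of each of the 44 genes, grouped by role, with bars for the standard error of the edgeR fit over 3 libraries per group. Red points are the 14 members higher and blue points the 12 members lower in ZFmut at an adjusted p under 0.05, and the largest differences are GDF15 at 0.95 and BIK at -1.22.

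Gene reads per library ranged from 22236214 in ZFmut replicate 1 to 102730428 in ZFmut replicate 3, with 24729078 in ZFmut replicate 2. WT replicates 1 to 3 had 28429913, 56873989 and 31401429. Whether the 3 replicates of a group were separate cultures is not in the labels, and p-values then reflect the spread of these libraries alone, which may be technical. ZBTB7B transcripts, which sum the transgene and the cell's own gene, reached 555, 547 and 627 CPM with ZFmut, against 899, 863 and 951 CPM with WT, a log2 difference of -0.65 ± 0.060 (SE, adjusted p = 1.39e-06, edgeR). ZFmut libraries thus carried less ZBTB7B RNA as well as another form of the protein, and these properties cannot be told apart. In bulk RNA, a change in every cell and a change in the share of cells that use a gene cannot be told apart either. Of 8 genes listed as markers of medulloblastoma and neural progenitors, NES, VIM, SOX2, SOX9, GLI2 and PTCH1 were expressed, OTX2 was low at 2.99 to 4.17 CPM, and ATOH1 was near 0. The summed level of these markers was 1016 to 1051 CPM in ZFmut and 949.4 to 993.5 CPM in WT libraries, with 2 higher and 1 lower in ZFmut. These were NES, with a log2 difference of 0.45 (edgeR adjusted p = 0.000404), SOX2 at 0.84 (edgeR adjusted p = 1.76e-06) and PTCH1 at -0.14 (edgeR adjusted p = 0.0472). Markers of other cell types were low. Their summed level was 11.85 to 14.2 CPM in ZFmut and 13.6 to 16.9 CPM in WT libraries for 4 neuronal markers, and 2.09 to 2.68 CPM in ZFmut and 4.39 to 4.97 CPM in WT libraries for 3 glial markers. It was 0.848 to 0.876 CPM in ZFmut and 2.91 to 3.695 CPM in WT libraries for 2 epithelial markers, and 1.34 to 1.46 CPM in ZFmut and 0.158 to 0.449 CPM in WT libraries for 2 endothelial markers. The 2 leukocyte markers, PTPRC and CD3E, and the endothelial CDH5 were at or near 0 and were not tested. Of these low markers 7 passed the test, of which AQP4, CDH1 and PECAM1 had larger differences than any of the 44 genes. The glial AQP4 had 0.0892, 0.0834 and 0.0883 CPM with ZFmut, against 1.35, 1.32 and 1.87 CPM with WT, a log2 difference of -4.05 (edgeR adjusted p = 3.67e-07) that rests on 2, 2 and 9 reads in the ZFmut libraries. The epithelial CDH1 had 0.491, 0.501 and 0.422 CPM with ZFmut, against 3.28, 2.99 and 2.47 CPM with WT, a difference of -2.69 (edgeR adjusted p = 1.67e-07). The endothelial PECAM1 had 1.249, 1.46 and 1.40 CPM with ZFmut, against 0.345, 0.405 and 0.158 CPM with WT, a difference of 2.10 (edgeR adjusted p = 4.09e-05). The glial MBP and the neuronal SYT1 were lower in ZFmut, at -0.94 (edgeR adjusted p = 0.000208) and -0.56 (edgeR adjusted p = 0.00102), and the neuronal SNAP25 and the glial GFAP were higher, at 0.98 (edgeR adjusted p = 0.000619) and 0.80 (edgeR adjusted p = 0.0473). For all of these markers their part in the results was not tested.

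GC content moved with the direction of change. The 14 higher members had a median transcript GC content of 55.9% and the 12 lower members 43.5%, and over all tested genes the called higher and called lower genes had medians of 56.55% and 45.8%. After trends on GC content and exon length were removed from each library, 21 of the 26 calls remained, 10 higher and 11 lower. The matching share over all called genes was not computed. MDM4, BCL2 and RRM2B were added as higher. That made 13 higher and 11 lower of the 44 members (54.5% called), beside 23.9% and 18.2% of all tested genes. The calls that ended were those of AEN, BAX, BAK1, BCL2L2 and CASP8. The correction also moved the median log2 difference of all tested genes from -0.0041 to 0.034. Corrected values were not re-centred on that median, so small positive ones lie close to it.

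**Figure D2:**
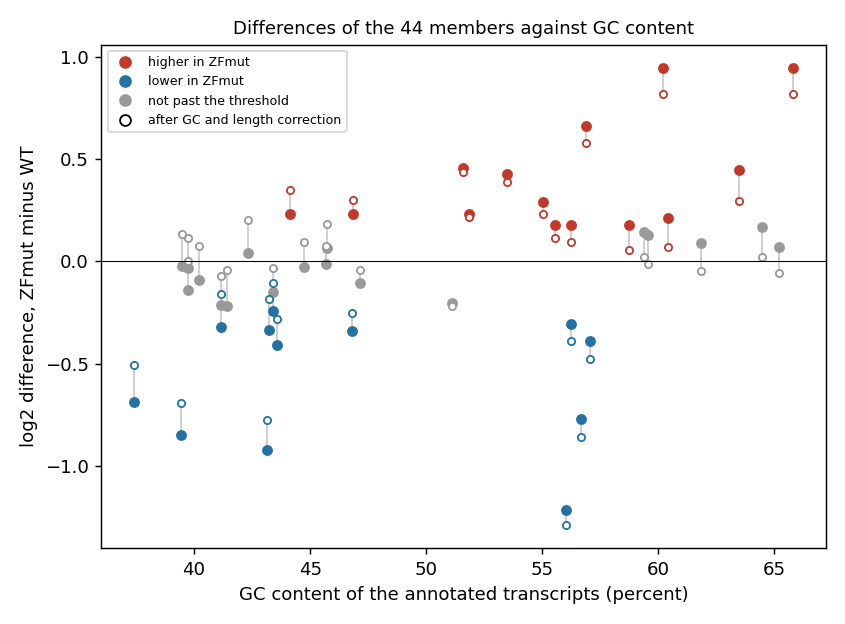
Log2 difference (ZFmut minus WT, vertical axis) of the 44 genes against the GC content of their annotated transcripts in percent (horizontal axis). Filled points are values without correction, coloured by call as higher (red), lower (blue) or not past the threshold (grey), and open points joined to them are the values after removal of trends on GC content and exon length. The higher members lie mostly at high GC content (median 55.9%) and the lower ones at low GC content (median 43.5%), apart from BIK, BMF, GADD45A and BCL2L1.

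None of the 3 genes that restrain p53 passed the threshold, which 35.6% of all tested genes passed. MDM2, the ubiquitin ligase that marks p53 for degradation and is itself a p53 target, had 40.5, 31.8 and 35.7 CPM with ZFmut, against 45.00, 39.1 and 41.3 CPM with WT. The log2 difference was -0.22 ± 0.081 (SE, adjusted p = 0.0517, edgeR), and the highest ZFmut library lay above the lowest WT library. It passed at -0.28 without ZFmut replicate 1 (edgeR adjusted p = 0.00443) and at -0.27 without WT replicate 2 (edgeR adjusted p = 0.0383), and over all alternatives other than a minimum fold its adjusted p ran from 0.000348 to 0.531. MDM4, its relative that also binds p53, averaged 44.3 ± 5.30 CPM in ZFmut and 43.1 ± 1.56 CPM in WT libraries (SD, n = 3 each), with a log2 difference of 0.043 (edgeR adjusted p = 0.703); after the GC and length correction it was 0.20 and passed (edgeR adjusted p = 0.0032). PPM1D, the phosphatase that switches off damage signalling, had a log2 difference of -0.11 (edgeR adjusted p = 0.3).

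Of 7 targets that act on arrest and growth, 1 was higher (14.3%) and 2 were lower (28.6%) in ZFmut. Over all tested genes 17.2% were higher and 18.4% lower. CCNG2 encodes cyclin G2, an atypical cyclin linked to arrest that is also known as a FOXO target, and was 1.90-fold lower in ZFmut. Its libraries had 9.24, 11.01 and 10.4 CPM in ZFmut replicates 1 to 3, against 21.2, 17.8 and 19.6 CPM in WT replicates 1 to 3. No ZFmut library came near the lowest WT library, and the log2 difference was -0.92 ± 0.088 (SE, adjusted p = 1.88e-06, edgeR). Its relative CCNG1, cyclin G1, is among the most regular p53 targets and had 60.1, 58.3 and 54.1 CPM with ZFmut, against 61.4, 57.5 and 57.2 CPM with WT. The groups of CCNG1 overlapped, with a log2 difference of -0.034 (edgeR adjusted p = 0.693). GADD45A, a small stress protein that acts on kinases and DNA repair, had 31.1, 34.04 and 32.4 CPM with ZFmut, against 41.3, 42.5 and 43.9 CPM with WT. All 3 ZFmut libraries lay below all 3 WT libraries, with a log2 difference of -0.39 ± 0.060 (SE, adjusted p = 0.000162, edgeR). Its relative GADD45B had a difference of 0.15 that did not pass (edgeR adjusted p = 0.154), though it did at 0.22 without ZFmut replicate 1 (edgeR adjusted p = 0.0152). PLK2, a polo-like kinase induced by stress and the member with the most reads, had 465, 459 and 448 CPM with ZFmut, against 405, 376 and 386 CPM with WT. It was 1.18-fold higher without overlap, at 0.23 ± 0.050 (SE, adjusted p = 0.00213, edgeR). The polo-like kinase PLK3 and BTG2, which recruits the deadenylase machinery to mRNAs, had log2 differences of 0.13 (edgeR adjusted p = 0.307) and -0.21 (edgeR adjusted p = 0.163).

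**Figure D3:**
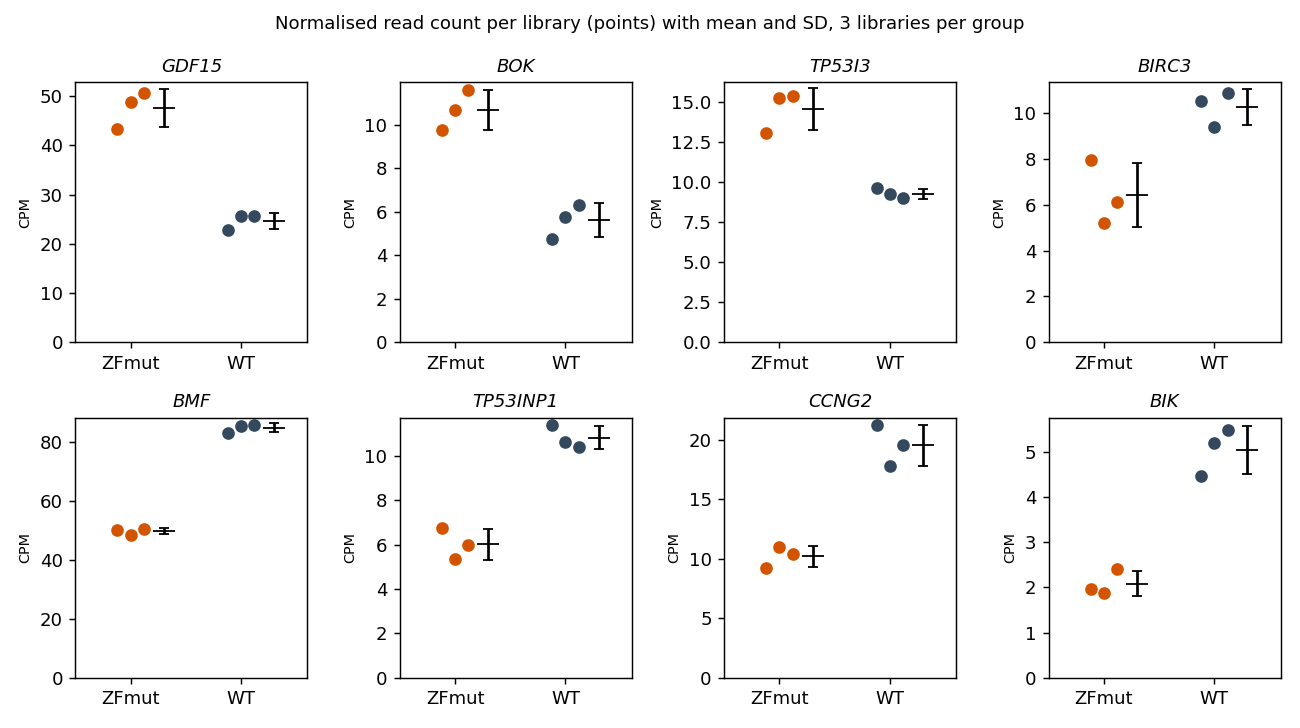
Normalised read count (CPM, vertical axis from 0) in each library for the 8 called members with a change of at least 1.5-fold, with ZFmut libraries in orange and WT libraries in dark grey. Bars at the right of each group give the mean and SD over 3 libraries; in all 8 panels the ZFmut and WT libraries do not overlap.

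Of 4 targets in DNA repair and nucleotide supply, 3 were higher (75%) and none was lower in ZFmut. Over all tested genes 17.2% were higher and 18.4% lower, and the calls of XPC and POLH depended on single libraries. DDB2, which recognises ultraviolet lesions for nucleotide excision repair, had 10.9, 9.89 and 10.3 CPM with ZFmut, against 7.18, 7.69 and 8.17 CPM with WT. The lowest ZFmut library lay above the highest WT library, and the log2 difference was 0.43 ± 0.088 (SE, adjusted p = 0.00165, edgeR). XPC, which recognises lesions in the same pathway, averaged 27.5 ± 2.21 CPM in ZFmut and 23.4 ± 0.875 CPM in WT libraries (SD, n = 3 each). Its log2 difference was 0.23 ± 0.071 (SE, adjusted p = 0.0191, edgeR), a call that ended without ZFmut replicate 2 (edgeR adjusted p = 0.0729), ZFmut replicate 3 (0.0733), WT replicate 1 (0.0555) or WT replicate 3 (0.066). Over 30.4% of its exonic sequence XPC overlaps genes on the other strand, LSM3 among them, which makes its count less certain. POLH, the polymerase that copies past ultraviolet lesions, had a log2 difference of 0.23 ± 0.074 (SE, adjusted p = 0.023, edgeR), a call that was lost without ZFmut replicate 3 (in edgeR, adjusted p = 0.0607) or WT replicate 2 (0.135). RRM2B, the p53-induced subunit of ribonucleotide reductase, stood at -0.020 (edgeR adjusted p = 0.865) and at 0.14 after the GC and length correction (edgeR adjusted p = 0.0488).

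The redox, metabolic and secreted targets included 3 higher members of 5 (60%) and no lower one, beside 17.2% and 18.4% of all tested genes. GDF15 (ENSG00000130513.6, chromosome 19, 18374731 to 18389176, plus strand) encodes a secreted stress cytokine of the TGF-beta superfamily, which ATF4 is known to induce as well. It reached 43.3, 48.8 and 50.6 CPM in ZFmut replicates 1 to 3, against 22.9, 25.6 and 25.6 CPM in WT replicates 1 to 3. ZFmut libraries held 1.93 times the WT level, with a log2 difference of 0.95 ± 0.073 (SE, adjusted p = 2.17e-07, edgeR), the largest increase among the 44 genes. TP53I3, a quinone oxidoreductase first described as a p53-induced gene, had 13.1, 15.3 and 15.4 CPM with ZFmut, against 9.60, 9.26 and 8.99 CPM with WT. Here too the groups were apart, at 0.66 ± 0.085 (SE, adjusted p = 2.98e-05, edgeR). FDXR, the ferredoxin reductase of mitochondria, had 9.99, 10.7 and 11.6 CPM with ZFmut, against 7.18, 8.92 and 7.60 CPM with WT. Its ZFmut libraries all lay above the WT libraries, by 0.45 ± 0.10 (SE, adjusted p = 0.00286, edgeR) on the log2 scale. TIGAR, which lowers glycolytic flux, and SESN1, a sestrin that restrains mTORC1, were below WT in every ZFmut library without passing the test, at -0.15 (edgeR adjusted p = 0.0805) and -0.21 (edgeR adjusted p = 0.097). TIGAR shares 45.6% of its exonic sequence with other annotated genes, so its count is less certain.

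Of the 5 remaining targets, 1 was higher (20%) and 2 were lower (40%), beside 17.2% and 18.4% of all tested genes. TP53INP1, a stress protein of the nucleus and of autophagy, had 6.74, 5.34 and 5.97 CPM with ZFmut, against 11.4, 10.7 and 10.4 CPM with WT. No library of ZFmut reached the WT range, and the log2 difference was -0.85 ± 0.10 (SE, adjusted p = 1.11e-05, edgeR). ZMAT3, an RNA-binding zinc-finger protein that acts on splicing, had 32.7, 28.7 and 31.7 CPM with ZFmut, against 40.2, 37.95 and 39.7 CPM with WT. It was lower without overlap at -0.34 ± 0.064 (SE, adjusted p = 0.000945, edgeR), and at -0.19 after the GC and length correction (edgeR adjusted p = 0.00413). AEN, a nuclease linked to apoptosis, was higher by 0.18 ± 0.066 (SE, adjusted p = 0.0482, edgeR), a call that the fit with ZFmut replicate 1 left out kept and the other 5 such fits did not: edgeR adjusted p was 0.0994 and 0.115 without ZFmut replicates 2 and 3, and 0.175, 0.0697 and 0.09 without WT replicates 1, 2 and 3. DESeq2 did not call AEN (adjusted p = 0.0592). TP53I11, of which little is known, and TRIAP1, a lipid carrier of the mitochondrial intermembrane space, had log2 differences of 0.090 (edgeR adjusted p = 0.367) and -0.026 (edgeR adjusted p = 0.795).

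Among cell death genes, all 3 pore-forming relatives of BCL2 were higher in ZFmut, though the calls of BAX and BAK1 depended on the fit. Of 7 BH3-only genes 4 were lower (57.1%) and 1 was higher (14.3%). Over all tested genes 18.4% were lower and 17.2% higher. BOK (ENSG00000176720.4, chromosome 2, 241551424 to 241574138, plus strand), a relative of BAX that resides largely on the endoplasmic reticulum, had 9.77, 10.7 and 11.6 CPM in ZFmut replicates 1 to 3, against 4.77, 5.74 and 6.30 CPM in WT replicates 1 to 3. The lowest ZFmut library was above the highest WT library, and BOK was 1.92-fold higher, a log2 difference of 0.94 ± 0.11 (SE, adjusted p = 1.22e-05, edgeR). BAX, at 75.5, 93.00 and 93.7 CPM with ZFmut, against 72.5, 77.3 and 77.4 CPM with WT, and BAK1, at 30.7, 32.5 and 31.02 CPM with ZFmut, against 28.01, 27.6 and 27.7 CPM with WT, are the direct pore-formers of the mitochondrial outer membrane. For BAX, ZFmut replicate 1 lay within the WT range, whereas all ZFmut libraries of BAK1 lay above WT. Their differences were 0.21 ± 0.072 (SE, adjusted p = 0.0335, edgeR) for BAX and 0.18 ± 0.060 (SE, adjusted p = 0.0324, edgeR) for BAK1. Both calls held without ZFmut replicate 1 and ended in the other 5 fits that left out a library: edgeR adjusted p for BAX and BAK1 was 0.127 and 0.0793 without ZFmut replicate 2, 0.197 and 0.0798 without ZFmut replicate 3, 0.0729 and 0.0577 without WT replicate 1, 0.0548 and 0.105 without WT replicate 2, and 0.078 and 0.108 without WT replicate 3. After the GC and length correction BAX was at 0.069 (edgeR adjusted p = 0.215) and BAK1 at 0.058 (0.427), both at high GC content (60.4% and 58.7%).

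BH3-only proteins are named for the BH3 motif, the short helix by which BCL2 relatives bind each other. BIK (ENSG00000100290.2, chromosome 22, 43110748 to 43129712, plus strand), which acts from the endoplasmic reticulum, showed the largest decrease of the 44 genes. It had 1.96, 1.88 and 2.40 CPM in ZFmut replicates 1 to 3, against 4.46, 5.19 and 5.48 CPM in WT replicates 1 to 3, from 44, 45 and 245 reads in the ZFmut libraries and 129, 295 and 173 reads in the WT libraries. Every ZFmut library was under the lowest WT library, and BIK was 2.32-fold lower at -1.22 ± 0.14 (SE, adjusted p = 1.20e-05, edgeR). BMF (ENSG00000104081.13, chromosome 15, 40087890 to 40108892, minus strand), which is held at the cytoskeleton until stress frees it, had 50.2, 48.5 and 50.5 CPM in ZFmut replicates 1 to 3, against 83.2, 85.6 and 85.9 CPM in WT replicates 1 to 3. With replicates this close together, its log2 difference of -0.77 ± 0.050 (SE, adjusted p = 3.63e-08, edgeR) had the smallest p-value of the 44 genes. PMAIP1, or NOXA, which binds MCL1, had 27.7, 25.3 and 25.6 CPM with ZFmut, against 37.4, 32.8 and 34.2 CPM with WT. BCL2L11, or BIM, which binds all survival relatives, had 14.1, 13.8 and 15.3 CPM with ZFmut, against 18.9, 18.1 and 18.2 CPM with WT. In both genes each ZFmut library lay below each WT library, with differences of -0.41 ± 0.069 (SE, adjusted p = 0.000322, edgeR) for PMAIP1 and -0.34 ± 0.072 (SE, adjusted p = 0.00208, edgeR) for BCL2L11. BID, which caspase 8 cleaves to carry a death receptor signal to mitochondria, went the other way at 46.7, 56.4 and 47.7 CPM with ZFmut, against 35.1, 37.7 and 36.8 CPM with WT. The groups did not overlap, and BID was higher by 0.45 ± 0.072 (SE, adjusted p = 0.000197, edgeR). BBC3, or PUMA, a strong p53 target, had 7.36, 10.1 and 10.2 CPM with ZFmut, against 7.84, 8.99 and 8.04 CPM with WT. ZFmut replicate 1 had the lowest level of the 6 libraries and the other two ZFmut libraries the highest, so the groups overlapped at a difference of 0.17 (edgeR adjusted p = 0.282). Without ZFmut replicate 1, BBC3 was higher by 0.29 (edgeR adjusted p = 0.0201). BAD, a BH3-only protein under control of growth factor kinases, stood at 0.073 (edgeR adjusted p = 0.723).

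Of the 4 survival relatives, 1 was higher and 1 lower in ZFmut (25% each), beside 17.2% and 18.4% of all tested genes. MCL1, a short-lived protein that many cells depend on, had 363, 374 and 364 CPM with ZFmut, against 372, 375 and 365 CPM with WT. Its groups overlapped, with a difference of -0.015 ± 0.048 (SE, adjusted p = 0.841, edgeR). BCL2L1, which encodes BCL-XL and BCL-XS, had 21.1, 23.03 and 24.2 CPM with ZFmut, against 27.9, 28.7 and 28.4 CPM with WT. It was lower without overlap at -0.31 ± 0.067 (SE, adjusted p = 0.00268, edgeR); 43.0% of its exonic sequence is overlapped by the antisense gene ABALON, which makes the count less certain. BCL2L2, or BCL-W, was higher by 0.18 ± 0.064 (SE, adjusted p = 0.0402, edgeR), and shares 24.3% of its exonic sequence with other genes, mainly the readthrough gene BCL2L2-PABPN1. That call ended without ZFmut replicate 3 (edgeR adjusted p = 0.215), WT replicate 1 (0.0987), WT replicate 2 (0.0836) or WT replicate 3 (0.115). BCL2 itself averaged 12.5 ± 1.36 CPM in ZFmut and 11.9 ± 0.24 CPM in WT libraries (SD, n = 3 each), with a difference of 0.064 (edgeR adjusted p = 0.604), and was higher by 0.18 after the GC and length correction (edgeR adjusted p = 0.0465).

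Downstream of the mitochondria, APAF1, the scaffold of the apoptosome, had 31.6, 33.2 and 34.8 CPM with ZFmut, against 43.1, 40.2 and 41.6 CPM with WT. All ZFmut libraries lay below WT, at -0.32 ± 0.061 (SE, adjusted p = 0.000964, edgeR), and the difference was -0.16 after the GC and length correction (edgeR adjusted p = 0.0319). CASP9, the caspase that APAF1 activates, moved the opposite way by 0.29 ± 0.078 (SE, adjusted p = 0.00932, edgeR), a call lost without ZFmut replicate 3 (0.23, edgeR adjusted p = 0.084). CASP8, the initiator caspase of death receptors, was lower at -0.24 ± 0.063 (SE, adjusted p = 0.00773, edgeR) and at -0.11 after that correction (edgeR adjusted p = 0.102). Of the inhibitors of apoptosis, BIRC3, or cIAP2, a ubiquitin ligase induced by NF-kB, had 7.94, 5.21 and 6.11 CPM with ZFmut, against 10.5, 9.40 and 10.9 CPM with WT. The highest ZFmut library was under the lowest WT library, and BIRC3 was 1.61-fold lower at -0.69 ± 0.12 (SE, adjusted p = 0.000562, edgeR). Its relative BIRC2, or cIAP1, was at -0.14 (edgeR adjusted p = 0.108), or -0.19 and called lower without ZFmut replicate 1 (in edgeR, adjusted p = 0.0133). XIAP, the direct inhibitor of caspases, was at -0.091 (edgeR adjusted p = 0.216).

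Levels were set beside each other per kilobase of annotated exon sequence (CPM per kb), which counts all exons of a gene and so understates genes whose long isoforms are not used. MCL1 was the most abundant of the 20 cell death genes in both groups, at 83.95 ± 1.37 CPM per kb in ZFmut and 84.8 ± 1.15 CPM per kb in WT libraries. BAX followed at 33.8 ± 3.98 and 29.3 ± 1.07 CPM per kb. In WT libraries BMF and PMAIP1 came next, both at 15.6 CPM per kb with overlapping ranges, ahead of BAK1 at 12.55 CPM per kb. In ZFmut libraries BAK1 took rank 3 at 14.2 CPM per kb, followed by PMAIP1 and BID at 11.7 and 11.3 CPM per kb with overlapping ranges, and BMF took rank 7 at 9.13 CPM per kb. BOK had rank 12 in ZFmut libraries at 3.94 CPM per kb and rank 18 in WT libraries at 2.07 CPM per kb. BIK had rank 17 at 2.18 CPM per kb in ZFmut and rank 11 at 5.29 CPM per kb in WT libraries. BCL2 stood near the bottom of both orders, at 1.06 and 1.01 CPM per kb in ZFmut and WT libraries. Summed over the 7 BH3-only genes, the level was 40.7, 43.2 and 42.5 CPM per kb in ZFmut and 52.7, 52.3 and 53.1 CPM per kb in WT libraries. BID made up 26.8% of that sum on average in ZFmut and 15.6% in WT libraries, BMF 21.7% and 29.6%, and BIK 5.19% and 10.03%. The 3 pore-forming genes summed to 46.7, 54.6 and 54.5 CPM per kb in ZFmut and 42.5, 44.5 and 44.7 CPM per kb in WT libraries. The 4 survival genes, most of it MCL1, summed to 97.3, 99.95 and 98.7 CPM per kb in ZFmut and 100.4, 101.6 and 99.1 CPM per kb in WT libraries. These sums describe the libraries and were not tested.

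**Figure D4:**
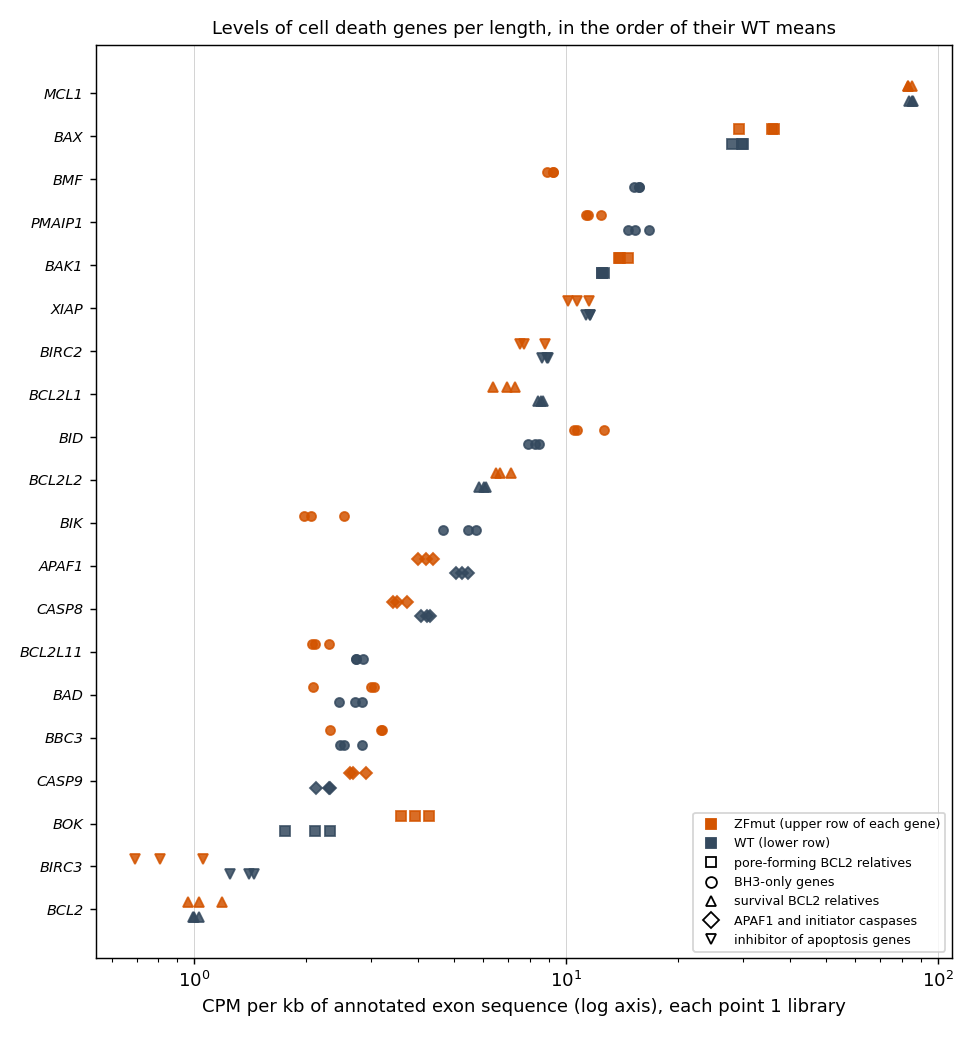
Level per length (CPM per kb of annotated exon sequence, log axis) of the 20 cell death genes, 1 point per library, with ZFmut in orange above WT in dark grey for each gene and marker shapes for the 5 roles. Genes run down in the order of their WT means, from MCL1 at 84.8 to BCL2 at 1.01 CPM per kb; BMF and BIK lie clearly to the left and BOK and BID to the right in ZFmut.

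Sequences upstream of the start are shown for GDF15 and CCNG2, which rose and fell most in ZFmut among the 24 genes listed as p53 regulators and targets. They are also shown for BOK and BMF, which did so among the cell death genes, leaving out genes with no RefSeq window. Windows of 250 bases before to 50 bases after the start (RefSeq, GRCh38.p14) were found for 38 of the 44 members. Those of GADD45A, RRM2B, TP53INP1, BIK, BCL2L2 and MCL1 were missing. For GDF15, CCNG2, BOK and BMF the RefSeq start lies inside the GENCODE span of the gene, downstream of the outermost annotated start. Each line gives the 250 bases before the start, 5′ to 3′ on the strand of the gene: GDF15 on chr19:18385908-18386157 (plus), CCNG2 on chr4:77156957-77157206 (plus), BOK on chr2:241558495-241558744 (plus) and BMF on chr15:40108880-40109129 (minus). Capitals mark a GC box (GGGCGG, searched on both strands here as for each motif), a TATA box (TATAAA), a FOXO element (GTAAACA) or an E-box (CACGTG).
GDF15: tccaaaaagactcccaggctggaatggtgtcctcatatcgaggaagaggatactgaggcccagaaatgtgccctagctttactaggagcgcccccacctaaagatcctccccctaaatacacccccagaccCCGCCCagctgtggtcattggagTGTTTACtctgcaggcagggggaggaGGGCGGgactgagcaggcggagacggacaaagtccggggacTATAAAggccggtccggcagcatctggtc
CCNG2: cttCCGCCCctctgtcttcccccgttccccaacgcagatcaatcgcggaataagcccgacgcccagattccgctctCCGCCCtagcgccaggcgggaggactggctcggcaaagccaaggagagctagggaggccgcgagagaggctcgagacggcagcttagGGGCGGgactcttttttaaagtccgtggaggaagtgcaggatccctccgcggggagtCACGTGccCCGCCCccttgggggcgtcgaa
BOK: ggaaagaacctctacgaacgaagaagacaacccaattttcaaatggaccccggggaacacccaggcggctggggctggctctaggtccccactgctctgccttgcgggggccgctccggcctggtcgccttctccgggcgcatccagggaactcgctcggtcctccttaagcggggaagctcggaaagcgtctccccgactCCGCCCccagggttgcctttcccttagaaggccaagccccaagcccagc
BMF: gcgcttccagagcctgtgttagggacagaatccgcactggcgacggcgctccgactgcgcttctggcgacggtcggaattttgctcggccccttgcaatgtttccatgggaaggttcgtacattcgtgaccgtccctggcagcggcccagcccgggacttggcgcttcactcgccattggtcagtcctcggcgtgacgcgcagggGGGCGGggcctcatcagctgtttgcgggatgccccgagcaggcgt

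GDF15 held 2 GC boxes, 1 TATA box and 1 FOXO element, CCNG2 4 GC boxes and 1 E-box, and BOK and BMF 1 GC box each. The p53 half-site consensus was in none of these 4 stretches. Over the whole 300-base windows it was found in 4 of the 38 members, AEN, BAK1, FDXR and PLK2, and in 6.54% of 27305 windows of all genes. GC boxes were in 30 of the 38 members and in 44.6% of all windows, TATA boxes in 3 members (BCL2L1, GADD45B and GDF15) and 12.0%, and FOXO elements in 2 members (BCL2L11 and GDF15) and 3.41%. E-boxes were in 5 members and 7.43% of windows, and the cyclic AMP element TGACGTCA in 2 members (BIRC2 and PPM1D) and 1.98%. These are matches of letters in short windows, and p53 is known to bind many targets in introns or farther upstream, outside them.

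Further p53 targets that are not among the 44 also moved in both directions. Of 26 listed genes 24 were tested, and 6 were higher and 8 lower in ZFmut (58.3% called, beside 35.6% of all tested genes), with a median log2 difference of 0.02. DGKA, a diacylglycerol kinase, was higher at 16.1, 17.98 and 16.8 CPM with ZFmut, against 10.7, 9.50 and 10.7 CPM with WT, a difference of 0.73 ± 0.081 (SE, adjusted p = 8.34e-06, edgeR). PERP, a membrane protein of desmosomes, was lower by -0.44 ± 0.056 (SE, adjusted p = 3.11e-05, edgeR). CYFIP2, of the actin-regulating WAVE complex, was higher by 0.50 ± 0.075 (SE, adjusted p = 0.000129, edgeR), and SUSD6 was lower by -0.34 ± 0.060 (SE, adjusted p = 0.000466, edgeR). The count of higher genes was 3 without ZFmut replicate 2, ZFmut replicate 3 or WT replicate 1, beside 14.2%, 11.9% and 13.9% of all tested genes. The count of lower genes was 4 without ZFmut replicate 3 or WT replicate 3 (beside 13.2% and 14%), 5 without WT replicate 1 (beside 14.6%), and 5 after the GC and length correction (beside 18.2%) or with DESeq2 (beside 16.1%).

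Of 22 further apoptosis genes 21 were tested, and 4 were higher and 5 lower (42.9% called, near the 35.6% of all tested genes). The higher ones made up 19% and the lower ones 23.8%, beside 17.2% and 18.4% of all tested genes, and the median log2 difference was 0.07. CFLAR, which encodes c-FLIP, an inhibitor of caspase 8, had 33.2, 30.4 and 32.5 CPM with ZFmut, against 46.8, 43.9 and 46.5 CPM with WT. It was lower without overlap by -0.51 ± 0.060 (SE, adjusted p = 1.54e-05, edgeR); 12.0% of its exonic sequence overlaps other genes. CASP10, the relative of CASP8, was lower at -0.48 ± 0.10 (SE, adjusted p = 0.00135, edgeR). HTRA2, a mitochondrial protease that counters inhibitor of apoptosis proteins, was higher by 0.37 ± 0.087 (SE, adjusted p = 0.00414, edgeR), with 36.9% of its exonic sequence shared with genes on the other strand, and BNIP3, a mitophagy receptor, by 0.25 ± 0.060 (SE, adjusted p = 0.00532, edgeR). The higher count was 7 without ZFmut replicate 1 (beside 20.4% of all tested genes), and the lower count was 3 without ZFmut replicate 3 or WT replicate 1 (beside 13.2% and 14.6%).

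**Figure D5:**
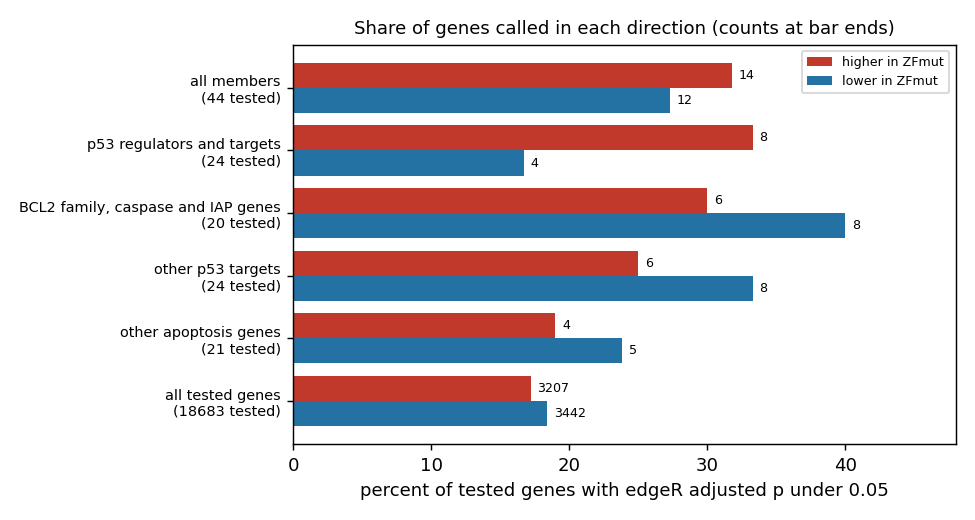
Percent of tested genes (horizontal axis, from 0) with an edgeR adjusted p under 0.05, higher (red) or lower (blue) in ZFmut, for the 44 members, their p53 and cell death parts, the further lists and all tested genes, with counts at the bar ends. Of the 44 members 14 were higher and 12 lower, beside 17.2% and 18.4% of all tested genes.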

How the data were processed

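Total RNA of 6 Daoy libraries, 3 ZFmut and 3 WT by their titles, was sequenced with a NEBNext Ultra kit that does not mark strand. The deposited values are raw read counts per gene. Tools named in the submitters' processing notes are cutadapt, HTSeq, TopHat2 2.0.9 and DESeq2, with build GRCh38; annotation and strand setting of the counting: not given in the sources used here. The 5 summary lines per file were left out; they held 7.71 to 8.08% of the total as reads that fit more than 1 gene, 5.04 to 6.56% as reads outside genes and 16.1 to 19.4% as reads aligned to several places. GENCODE release 29 held 56996 (94.1%) of the 60554 identifiers and all 44 members.

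Counts were fitted in R 4.3.3 with edgeR 4.0.16 (TMM, filterByExpr, two-sided quasi-likelihood F test, no covariates), with p-values adjusted over all 18683 tested genes by the method of Benjamini and Hochberg. Differences are ZFmut minus WT. The procedure was tested on simulated counts, drawn with the same dispersion for every gene and without trends on GC content. That test therefore does not measure how accurate the calls in these libraries are. Members, lists and alternatives were chosen with earlier results of these data known. Every member is accounted for; those called with a difference of at least 0.3 in size are given library by library, and from each further list up to 4 called genes with the smallest p. Alternatives were other scaling factors, DESeq2 1.42.0, limma-voom (limma 3.58.1), other filters, ZBTB7B left out, each library left out, the replicate number as a block, loess corrections for GC content and exon length (span 0.5), thinning to the smallest library and a minimum fold of 1.2. Every pair of libraries within a group differed beyond sampling noise (chi-square of 3.42 to 8.00 per degree of freedom), so all 6 were kept.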

Additional observations from a re-analysis of the deposited data

How the results depend on the processing

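Of the 26 called members, 18 (7 higher, 11 lower) were called under every alternative other than the minimum fold that could test them. AEN, BAX, BAK1, BCL2L2, XPC, POLH, CASP8 and CASP9 were not. The matching share over all called genes was not computed, so whether the members' calls were more or less stable than others is not known. BIK was not tested with the filter of 5 CPM. Against a minimum fold of 1.2, 4 members were higher and 6 lower, beside 1102 and 1289 of all genes, 2 and 1 further p53 targets, and 0 and 2 further apoptosis genes. For the 0 higher genes of that edgeR test, the same genes without a minimum fold gave 4 calls in edgeR and 4 in DESeq2. When each library was left out, higher and lower calls ran from 2266 to 3934 and 2504 to 3782 over all genes, 7 to 16 and 12 to 14 over members, 3 to 7 and 4 to 8 over further p53 targets, and 3 to 7 and 3 to 5 over further apoptosis genes. Lower calls among further p53 targets fell to 5 with DESeq2 and with the GC and length correction, alone or with the replicate block. In these fits 3006, 3406 and 3523 of all 18683 tested genes were lower. With that correction and the block, 8 further apoptosis genes were higher, beside 4711 of all 18683 tested genes. The main fit had 4 and 3207.

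Signs turned only for members that were not called in the main fit. Of these, RRM2B passed the threshold as higher after the GC and length correction (edgeR adjusted p = 0.0488). It also passed with the replicate block added (edgeR adjusted p = 0.0393). CCNG1 passed as higher with the correction and the block (edgeR adjusted p = 0.025). After the GC and length correction the log2 differences were -0.011 for PLK3, 0.11 for CCNG1, 0.14 for RRM2B, -0.048 for TP53I11, 0.095 for TRIAP1, -0.057 for BAD, 0.073 for MCL1, 0.075 for XIAP and 0.0031 for BIRC2; with the replicate block added they were -0.017, 0.12, 0.14, -0.049, 0.095, -0.064, 0.073, 0.075 and 0.0035. Over the fits that left out a library, MDM4 ran from -0.0029 to 0.13, CCNG1 from -0.053 to 0.014, RRM2B from -0.071 to 0.032, TRIAP1 from -0.063 to 0.0091, BAD from -0.033 to 0.21 and MCL1 from -0.027 to 0.0070. The correction was built on GC content and length. It also moved the median log2 difference of all tested genes to 0.034, with or without the block, from -0.0041 in the main fit. Corrected values were not re-centred on that median, and BIRC2 lay below it. Beyond GC content and length, the causes of the turned signs were not tested.

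Libraries of the 2 groups share only a replicate number: deviations of same-numbered libraries correlated at 0.16, 0.08 and 0.06, each library best with its own number, a hint from the data and not from the design. With the replicate block, 15 members were higher and 16 lower, with MDM2, GADD45B, TIGAR, BIRC2 and XIAP added, beside 4226 and 4466 of all genes. The members' lowest count, 44 reads of BIK in ZFmut replicate 1, limits its precision.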
